A study of Mus musculus with 2 samples.

Results

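Transcription factors of the lung mesenchyme were followed through single nuclei of embryonic day 18 mouse lung. The 10 genes were Tbx2, Tbx3, Tbx4, Tbx5, Tcf21, Foxf1, Meox2, Meis1, Zfp536 and Ebf1, taken by name from the 32285 genes counted in each library, and all 10 had enough counts to be compared. Chromatin accessibility of the same nuclei was followed at every peak within 100 kb of their starts. The study asked what asthma of the mother during pregnancy leaves in the fetal lung, so 1 library came from fetuses of an OVA-treated mother and 1 from fetuses of a PBS-treated mother.

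All mice were wild-type C57BL/6J. The mothers, 6 to 8 weeks old, were sensitized intraperitoneally with alum on days -21 and -7, and only the OVA mother received ovalbumin with it (100 ug). She was then given 500 ug of ovalbumin intranasally every few days from gestation day 4 to day 17, while the control mother received PBS. Both were bred to untreated males. Lungs of 9 fetuses (PBS) or 8 fetuses (OVA) were pooled into a library, so each group is a single litter, no difference between the groups has a replicate check, and no p-value can be given. Sorting took ILC2s (CD45+, Lin-, ST2+), other CD45+ cells and epithelium (EpCAM+), which were then mixed. Mesenchymal cells were not sorted for, and those described here are nuclei that came through these sorts.

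The lung mesenchyme surrounds the branching epithelium and gives rise to interstitial fibroblasts, airway and vascular smooth muscle, the myofibroblasts of the growing alveoli, and pericytes. T-box factors and the forkhead factor Foxf1 act early in this tissue, where hedgehog, Wnt and FGF signals pass between epithelium and mesenchyme, and Tcf21 is a basic helix-loop-helix factor of the fibroblast lineage. Meox2 and Meis1 carry homeodomains, Zfp536 is a zinc finger factor best known from neurons, and Ebf1 is known both for B cell development and as a gene of perivascular cells.

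The libraries held 8019 (PBS) and 5960 (OVA) barcodes with 11473351 and 13774959 gene UMIs, and 4279 and 4996 nuclei remained after filtering. Nuclei of the OVA library were deeper (median 1820 against 1114 UMIs) and had a lower mitochondrial share (27.7% against 36.9%), and 54 barcodes occurred in both libraries. A nucleus was assigned to a cell type when at least 2 of the 8 markers fixed for that type had a UMI and no other type had as many, and none of the 10 factors was a marker. This gave 1068 (PBS) and 1386 (OVA) fibroblasts, 100 and 102 myofibroblasts or smooth muscle cells, and 101 and 136 pericytes, together 1269 and 1624 mesenchymal nuclei. All 8 markers of its own panel were detected in each of these gates in both libraries. Another 1624 and 2038 nuclei were gated to epithelial, endothelial, immune and other types, and 1381 and 1323 passed no gate. Epcam and Ptprc, which encode the EpCAM and CD45 used for sorting, were low in the fibroblast gate, at 2.71 (PBS) and 2.55 (OVA) counts per 1000000 gene UMIs (CPM) for Epcam and 30.5 and 21.0 CPM for Ptprc. Epcam stood at 85.8 and 106 CPM in alveolar type 2 nuclei, and Ptprc at 431 and 572 CPM in ILC2s. The alveolar type 2 panel summed to 512 and 397 CPM in fibroblasts and to 1330 and 483 CPM in pericytes, where the panels of the gates themselves summed to 6710 and 7700 CPM and to 5190 and 4820 CPM. All intervals below are 95% intervals of counting error alone.

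Of the 10 factors, 8 were at least 4-fold higher in mesenchymal than in other gated nuclei in both libraries, namely Tbx2, Tbx3, Tbx4, Tbx5, Tcf21, Meox2, Meis1 and Zfp536. Over all genes with at least 20 UMIs in each library, 708 of 11093 (6.38%) met the same rule. The median log2 ratio of the 10 factors was 3.25 (PBS) and 4.23 (OVA), against 0.0459 and 0.0306 for all genes. The factors were chosen as genes of lung mesenchyme, with earlier results of these data known. These values therefore describe the list and test nothing. Foxf1 and Ebf1 passed 4-fold in the OVA library only. Foxf1 stood at 3.31-fold (log2 1.73, interval 1.15 to 2.33) in PBS and 4.53-fold (2.18, 1.71 to 2.67) in OVA, and Ebf1 at 2.97-fold (1.57, 1.28 to 1.86) and 4.89-fold (2.29, 2.06 to 2.53). Outside these 3 gates, Foxf1 was also found in endothelium and Ebf1 in B cells. In PBS, Ebf1 also stood at 86.8 CPM in alveolar type 2 and 69.3 CPM in alveolar type 1 nuclei, above the 38.0 CPM of fibroblasts. In OVA these levels were 29.3, 24.1 and 30.9 CPM. With nuclei limited to 20% mitochondrial UMIs, Tbx3 and Tbx5 no longer passed and 6 remained.

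**Figure D1:**
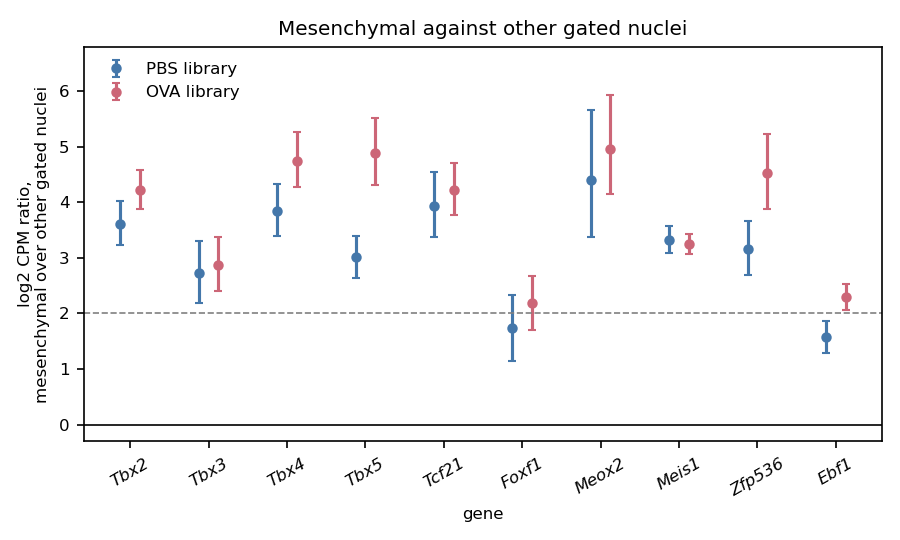
Log2 ratio of CPM in mesenchymal over other gated nuclei (y axis) for the 10 factors (x axis), with PBS in blue and OVA in red. Points are the ratios, bars the 95% counting intervals, and the dashed line marks 4-fold; all points lie above 0, and those of Foxf1 (1.73) and Ebf1 (1.57) in PBS lie under the dashed line.

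Tbx2 (chr11:85832551-85841948, plus strand, GRCm38) encodes a T-box repressor known to keep lung mesenchyme proliferating. Over all mesenchymal nuclei it stood at 263 CPM (PBS, 459 UMIs) and 290 CPM (OVA, 1057 UMIs), against 21.5 and 15.5 CPM in the other gated nuclei, or 12.3-fold and 18.8-fold higher. All 3 mesenchymal gates carried it. Fibroblasts were at 257 (interval 232 to 284) and 280 (262 to 300) CPM, myofibroblasts or smooth muscle at 214 (141 to 311) and 257 (192 to 338), and pericytes at 371 (278 to 485) and 416 (347 to 496). Pericytes were the highest in both libraries, 1.44-fold and 1.48-fold above fibroblasts with intervals that left out equality, while fibroblasts and myofibroblasts could not be separated. Among the 11 cell types with at least 20 nuclei in each library, the next in order was neutrophils, with 119 CPM in PBS and 31.4 CPM in OVA from 3 and 2 UMIs.

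Tbx4 (chr11:85886422-85916097, plus strand), a T-box factor of lung and limb mesenchyme, starts 53871 bp downstream of Tbx2 on the same strand. Its mesenchymal level was 220 (PBS) and 210 (OVA) CPM against 15.2 and 7.83 CPM elsewhere, 14.4-fold and 26.8-fold higher. The 3 gates lay close together, with 210 and 202 CPM in fibroblasts, 285 and 247 in myofibroblasts or smooth muscle, and 266 and 276 in pericytes. Among the ratios between these gates, only that of pericytes over fibroblasts in OVA (1.37-fold) had an interval without equality. In each other type of these 11 Tbx4 was at or below 39.5 CPM in PBS and 47.2 CPM in OVA.

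Tbx5 (chr5:119832668-119885219, plus strand), a T-box activator required for lung budding, was at 199 (PBS) and 153 (OVA) CPM in mesenchymal and 24.6 and 5.15 CPM in other nuclei, a ratio of 8.07-fold and 29.6-fold. Fibroblasts had the lowest level of the 3 gates, 181 (159 to 204) and 141 (128 to 155) CPM. Pericytes (322 and 223 CPM) exceeded them 1.78-fold and 1.58-fold, and myofibroblasts or smooth muscle (269 and 227 CPM) 1.49-fold and 1.61-fold, each with an interval that left out equality. Outside the mesenchyme the libraries differed in several gates. Alveolar type 2 nuclei were at 31.1 CPM in PBS and 9.45 CPM in OVA, and alveolar type 1 nuclei at 29.1 and 2.68 CPM. Values of monocytes and mast cells or basophils were also lower in OVA, while those of neutrophils (0 and 78.6 CPM) and macrophages (0 and 1.25 CPM) were higher. Several of these rest on few UMIs. The neutrophil gate, for example, held 25300 (PBS) and 63609 (OVA) UMIs of all genes. No interval was computed for ratios between libraries outside the mesenchyme. ILC2s of the PBS library held 19 Tbx5 UMIs (52.5 CPM, interval 31.6 to 82.0) and those of the OVA library 0 of 751635 UMIs, which allows up to 3.99 CPM. When nuclei were clustered on their whole transcriptomes, 17 of 352 ILC2-gated nuclei in PBS and 0 of 502 in OVA fell into a mesenchymal cluster, and their part in this result was not tested.

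Tbx3 (chr5:119670669-119684724, plus strand), a relative of Tbx2 and neighbour of Tbx5, was highest, among the 3 mesenchymal gates, in myofibroblasts or smooth muscle. Its mesenchymal level was 82.6 (PBS) and 68.1 (OVA) CPM against 12.5 and 9.28 CPM, 6.62-fold and 7.35-fold higher. Myofibroblasts or smooth muscle reached 198 (128 to 292) and 151 (102 to 216) CPM, 2.56-fold and 2.38-fold over fibroblasts (77.4 and 63.7 CPM) and 5.66-fold and 2.53-fold over pericytes (35.0 and 59.9 CPM), each with an interval that left out equality. Fibroblasts and pericytes could not be separated. Endothelial nuclei also carried Tbx3, with 62.2 CPM (25.0 to 128) from 12 nuclei in PBS and 201 CPM (141 to 277) from 29 nuclei in OVA.

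Tcf21 (chr10:22817281-22820174, minus strand) and Meox2 (chr12:37108540-37179534, plus strand) were highest, among the 3 mesenchymal gates, in fibroblasts. Tcf21 was at 179 (158 to 202) CPM in PBS and 188 (173 to 203) CPM in OVA fibroblasts. Myofibroblasts or smooth muscle held only 1 and 5 Tcf21 UMIs (7.92 and 25.2 CPM) and pericytes 2 and 9 (14 and 30 CPM). Fibroblasts exceeded myofibroblasts by log2 4.50 (2.01 to 9.81) and 2.89 (1.66 to 4.52) and pericytes by log2 3.68 (1.81 to 6.73) and 2.65 (1.71 to 3.78). In PBS the pericyte level was no higher than that of ILC2s (19.3 CPM). In OVA only neutrophils, at 31.4 CPM from 2 UMIs, reached it outside the mesenchyme, among the 11 cell types with at least 20 nuclei in each library. The next of these in OVA were alveolar type 1 nuclei, at 12.1 CPM.

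Meox2, a homeodomain factor of mesoderm, was also highest in fibroblasts. It reached 67.2 (54.6 to 81.8) and 86.3 (76.3 to 97.2) CPM in fibroblasts, 15.8 and 15.1 CPM in myofibroblasts or smooth muscle from 2 and 3 UMIs, and 14 and 30 CPM in pericytes from 2 and 9 UMIs. Fibroblasts exceeded myofibroblasts by log2 2.08 (0.19 to 5.15) and 2.51 (0.95 to 4.80). Its ratio of mesenchymal over other nuclei was the highest of the 10 factors in both libraries, at 21.3-fold (log2 4.41, interval 3.38 to 5.66) and 31.4-fold (4.97, 4.15 to 5.94), and intervals of several other factors overlapped these. Of all Meox2 UMIs in kept nuclei, 77.4% (PBS) and 93.7% (OVA) came from the 3 mesenchymal gates.

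Foxf1 (chr8:121084386-121088144, plus strand), a hedgehog target needed for lung mesenchyme and vessels, was at 43.6 (PBS) and 44.8 (OVA) CPM in mesenchymal and 13.2 and 9.89 CPM in other nuclei. Fibroblasts were the lowest of the 3 gates, with 38.0 and 39.8 CPM. Myofibroblasts or smooth muscle stood at 63.4 and 95.9 CPM and pericytes at 84.0 and 63.3 CPM. Only the ratio of myofibroblasts over fibroblasts in OVA (2.41-fold) and that of pericytes over fibroblasts in PBS (2.21-fold) had intervals without equality. The few endothelial nuclei had higher Foxf1 values than any mesenchymal gate, with 124 CPM (68.0 to 209) in PBS and 217 CPM (155 to 295) in OVA.

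Meis1 (chr11:18879817-19018985, minus strand), a cofactor of Hox and Pbx proteins, was detected throughout the mesenchyme. It was at 567 (529 to 607) and 564 (538 to 591) CPM in fibroblasts, 705 and 656 in myofibroblasts or smooth muscle, and 511 and 363 in pericytes. Myofibroblasts or smooth muscle exceeded pericytes 1.38-fold and 1.81-fold with intervals that left out equality, and could not be separated from fibroblasts. Meis1 was also found elsewhere. Mesothelial nuclei had 612 and 717 CPM from 6 and 22 UMIs, ILC2s 157 (119 to 204) and 138 (113 to 168) CPM, and mast cells or basophils 169 (68.0 to 348) and 357 (267 to 467) CPM. Alveolar, airway, macrophage and monocyte nuclei were at or below 43.8 CPM. The ratio of mesenchymal over other nuclei was 10.1-fold (log2 3.33, 3.09 to 3.58) and 9.54-fold (3.25, 3.07 to 3.44).

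Zfp536 (chr7:37472135-37773641, minus strand) was highest, among the 3 mesenchymal gates, in myofibroblasts or smooth muscle. It was at 404 (301 to 531) and 510 (415 to 619) CPM there, 123 (106 to 142) and 79.9 (70.3 to 90.4) CPM in fibroblasts, and 7.0 and 36.6 CPM in pericytes, the last from 1 and 11 UMIs. The ratio of myofibroblasts over fibroblasts was 3.29-fold (log2 1.72, interval 1.24 to 2.17) and 6.38-fold (2.67, 2.33 to 3.01). Outside the mesenchyme, ILC2s of the PBS library had 58.0 CPM (35.9 to 88.7) from 21 UMIs and those of the OVA library 5.32 CPM (1.45 to 13.6), beside the ILC2-gated nuclei of mesenchymal clusters already given for Tbx5. Neutrophils, mast cells or basophils, monocytes and alveolar nuclei also had lower Zfp536 values in OVA. Airway epithelium (0 and 3.46 CPM) and macrophages (0 and 2.5 CPM) had higher ones. Most of these values rest on few UMIs, and no interval was computed for their ratios between libraries. The only nucleus in the Schwann or neuronal gate, in OVA, held 6 Zfp536 UMIs.

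Ebf1 (chr11:44617317-45008091, plus strand) was the pericyte gene of the set. Pericytes held 1410 (1230 to 1620) CPM in PBS and 1940 (1790 to 2110) CPM in OVA. Fibroblasts held 38.0 and 30.9 CPM, and myofibroblasts or smooth muscle 174 and 237 CPM. Pericytes thus exceeded fibroblasts 37.2-fold and 62.9-fold (log2 of fibroblasts over pericytes -5.22, interval -5.67 to -4.78, and -5.97, -6.30 to -5.66) and myofibroblasts 8.11-fold and 8.18-fold. An Ebf1 UMI was found in 64.4% and 87.5% of pericytes (median 1027 and 1778 UMIs), and in 4.29% and 2.40% of alveolar type 2 nuclei (median 1382 and 1982 UMIs). After every nucleus was thinned to 500 UMIs, leaving 64 and 124 pericytes, the shares were 48.4% and 63.7%, against 3.16% and 0.885% of alveolar type 2 nuclei. The only gate above pericytes was B cells, at 4650 and 3640 CPM from 4 and 18 nuclei.

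**Figure D2:**
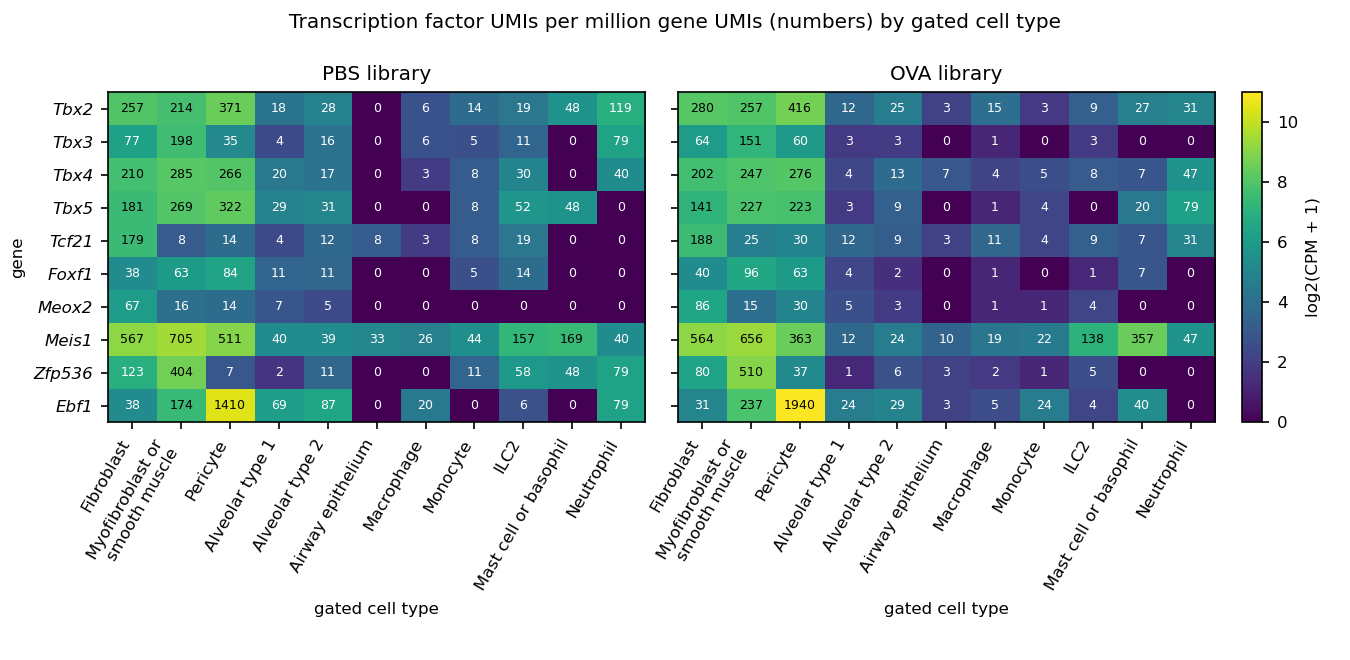
Levels of the 10 factors (rows) in the 11 gated cell types with at least 20 nuclei in each library (columns), PBS and OVA in separate panels; numbers are CPM and colour is log2(CPM + 1). The highest value of each row lies in fibroblasts, myofibroblasts or smooth muscle, or pericytes, and Ebf1 stands out in pericytes (1410 and 1940 CPM).

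The order of the mesenchymal gates thus differed among the 10 factors. Among these 3 gates, Tcf21 and Meox2 were highest in fibroblasts, Tbx3 and Zfp536 in myofibroblasts or smooth muscle, and Tbx2 and Ebf1 in pericytes, in both libraries. Over the 11 cell types with at least 20 nuclei in each library, which leave out endothelium, mesothelium and B cells, the top gate was apart from the next beyond counting error in both libraries for 5 of these 6. The exception was Tbx3 in PBS, where the next gate in order was neutrophils with 2 UMIs. For Tbx4, Tbx5, Foxf1 and Meis1 the highest and the next of these 11 types could not be told apart in either library, and the Foxf1 level of endothelium (124 and 217 CPM) lies outside that comparison.

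The fibroblast gate held several patterns. Clustering of all nuclei, with the 10 factors and the further transcription factors left out, gave 21 clusters, of which 4 held most fibroblast-gated nuclei. Cluster 1, led by genes such as Wnt2, Mfap4 and Fgfr4, and cluster 3, led by Cemip, C7 and Chst8, were combined, because the first held 571 (PBS) and 345 (OVA) nuclei of the gate and the other 138 and 729, so that the libraries differed in which of them was filled. Together they contained 709 (66.4%) and 1074 (77.5%) of the gate. Cluster 4 contained 186 (17.4%) and 177 (12.8%) and was led by Csmd1, Nrxn3, Zfp536, Greb1 and Lgr6. It had 6 of the 8 myofibroblast or smooth muscle markers raised, none of them among its 10 leading genes. By these markers the cluster, with 487 and 386 nuclei in all, was named myofibroblast or smooth muscle. In the gate of that name, 76 of 100 (PBS) and 63 of 102 (OVA) nuclei had only 2 markers or a lead of 1 marker. In the fibroblast gate these were 410 of 1068 and 310 of 1386. Cluster 9 contained 142 (13.3%) and 94 (6.78%) and was led by Ptn, Prss35, Dcn and Ntrk3. It had 5 fibroblast and 4 pericyte markers raised.

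Zfp536, Tbx3, Tbx5, Tbx4 and Foxf1 were highest in cluster 4. Zfp536 had 583 (500 to 676) and 670 (586 to 762) CPM there, 5.36 and 5.20 CPM in clusters 1 and 3, and 0 and 1 UMI in cluster 9, so that cluster 4 supplied 96.7% and 92.4% of the Zfp536 UMIs of the gate. Tbx3 was at 227 (176 to 287) and 289 (235 to 351) CPM in cluster 4 and at 41.8 and 36.8 CPM in clusters 1 and 3. For Tbx5 these levels were 460 (386 to 543) and 332 (274 to 398) against 120 and 124 CPM, and for Tbx4 353 (289 to 427) and 401 (337 to 474) against 191 and 191 CPM. Foxf1 followed with 96.6 (64.7 to 139) and 136 (99.7 to 180) against 24.7 and 29.2 CPM. In cluster 9 all of these were at or below their level in clusters 1 and 3, except that Zfp536 in OVA was at 5.32 CPM from its 1 UMI.

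Tcf21 and Meox2 had the opposite distribution. Tcf21 was at 238 (208 to 272) and 217 (199 to 236) CPM in clusters 1 and 3 and at 174 and 186 CPM in cluster 9, but at 23.3 (9.38 to 48.0) and 20.2 (8.12 to 41.6) CPM in cluster 4. Meox2 was at 93.3 and 104 CPM in clusters 1 and 3, 42.2 and 47.9 CPM in cluster 9, and 13.3 and 0 CPM in cluster 4, where the interval of the 0 reaches 10.6 CPM. The remaining factors divided the gate differently. Ebf1 came mainly from cluster 9, with 153 (102 to 220) and 304 (230 to 393) CPM against 4.29 and 3.6 CPM in clusters 1 and 3. Tbx2 was at 278 and 290 CPM in clusters 1 and 3 and 293 and 326 CPM in cluster 4, with overlapping intervals, and lower in cluster 9 (164 and 170 CPM). Meis1 was lowest in clusters 1 and 3 (501 and 546 CPM), with 806 and 696 CPM in cluster 4 and 607 and 820 CPM in cluster 9.

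**Figure D3:**
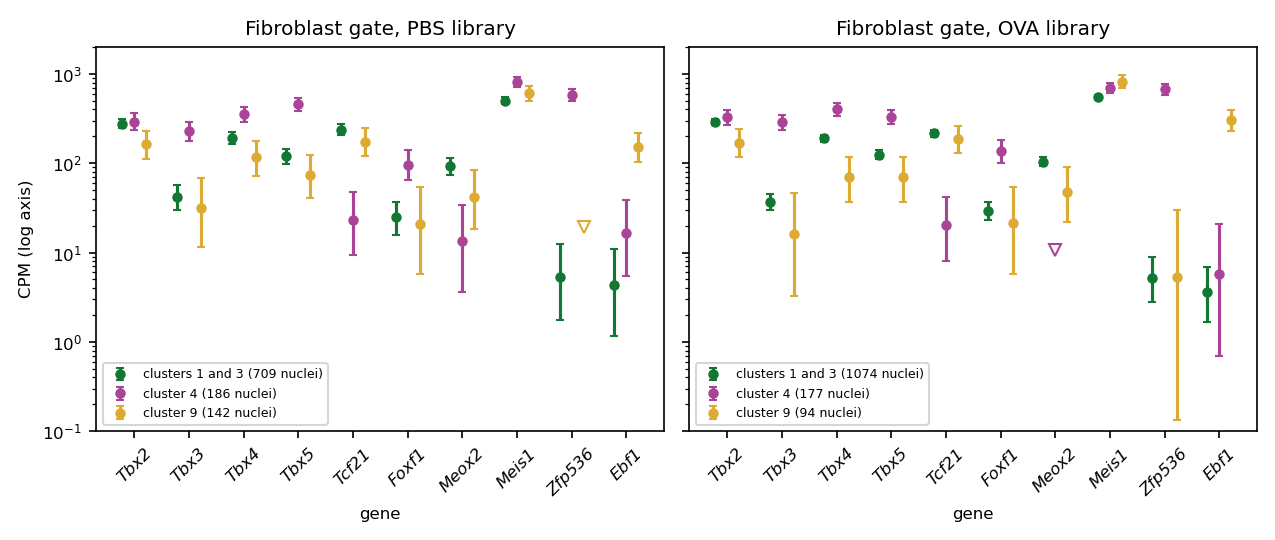
CPM (log axis) of the 10 factors in fibroblast-gated nuclei of clusters 1 and 3, of cluster 4 and of cluster 9, with PBS and OVA in separate panels. Bars are 95% counting intervals and open triangles mark the upper interval bound where no UMI was found; cluster 4 lies above clusters 1 and 3 for Tbx3, Tbx4, Tbx5, Foxf1 and Zfp536 and below them for Tcf21 and Meox2 in both panels.

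Detection in single nuclei was compared over all 3 mesenchymal gates together, so differences between the gates also enter these shares. Among all mesenchymal nuclei with a Tcf21 UMI, 5 of 197 (2.54%) in PBS and 8 of 405 (1.98%) in OVA also had a Zfp536 UMI, compared with 10.7% and 13% of those without Tcf21. As background, 2.84% and 0.797% of ILC2s had a Zfp536 UMI, at a median of 858 and 1284 UMIs against 1078 and 1935 in fibroblasts, and the PBS share was at that level. Among nuclei with a Tbx3 UMI, 31.9% and 32.6% had Zfp536, against 7.27% and 7.31% of those without Tbx3. Tcf21 and Meox2 occurred together, with Meox2 in 13.7% and 22.7% of nuclei with a Tcf21 UMI and in 4.85% and 10.0% of the others. These shares were not adjusted for the depth of each nucleus.

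Other transcription factors known from mesenchyme were compared in the same way. Of a list of 32, 24 had at least 20 UMIs in each library, 15 were at least 4-fold higher in mesenchymal nuclei in both libraries (background 6.38%), and 0 were 4-fold lower. Their median log2 ratio was 2.41 (PBS) and 3.41 (OVA). This list, too, was chosen with earlier results of these data known, so its share is a description. The highest by the smaller of the 2 ratios were Gli2 (log2 5.03, interval 3.86 to 6.50, and 5.87, 4.81 to 7.20) and Gli1 (3.90, 2.20 to 6.26, and 5.48, 3.57 to 8.56), which transmit hedgehog signals in the nucleus. Next came Zfpm2 (3.62 and 5.05), a GATA cofactor, and Prrx1 (3.54 and 5.52), a homeodomain factor of connective tissue. Hoxa5 (3.45 and 3.67), a Hox gene of lung mesenchyme, the nuclear receptors Nr2f2 (3.06 and 4.16) and Nr2f1 (2.93, 1.5 to 4.68, and 5.84, 3.29 to 11.2), and Snai2 (2.84 and 4.36), a zinc finger repressor, completed the leading 8. With nuclei limited to 20% mitochondrial UMIs, or with a minimum of 100 UMIs, 7 of the list passed.

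These factors also differed in which gate they favoured. Zfpm2 had its highest level in myofibroblasts or smooth muscle (658 and 702 CPM), a lower one in fibroblasts (393 and 401 CPM) and the lowest in pericytes (91.0 and 140 CPM). Gli2 stood at 72.6 and 91.1 CPM in fibroblasts and 21.0 and 40.0 CPM in pericytes, and Snai2 at 41.4 and 60.5 CPM against 21.0 and 23.3 CPM. Nr2f2 was at 269 and 286 CPM in fibroblasts, 266 and 326 in pericytes and 95.1 and 177 in myofibroblasts or smooth muscle. Nr2f1 was at 49.0 and 40.0 CPM in pericytes and 10.9 and 9.87 CPM in fibroblasts, and had no UMI in myofibroblasts or smooth muscle.

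The genes whose levels followed each factor most closely were taken over 22 points, the 11 cell types with at least 20 nuclei in each library. Points of a library share its depth and 6944 genes were searched, so that the correlations are descriptions only. They were Sparcl1 (r = 0.953), Col1a1 (0.945, itself a fibroblast marker) and Rhoj (0.935) for Tbx2. Tbx3 was followed by Itga8 (0.950), Dnm3os (0.929) and Etv1 (0.919), Tbx4 by Prdm6 (0.950), Pknox2 (0.948) and Adamts1 (0.946), and Tbx5 by Iigp1 (0.934), Aff2 (0.927) and Adamts12 (0.909). For Tcf21, whose best values were the lowest of the set, they were Frem1 (0.852), March3 (0.849) and Smc1a (0.848), and Dgkb (0.905) and Fkbp10 (0.905) were among those of Meox2. Foxf1 was followed by Ism1 (0.959), C1qtnf7 (0.952) and Ddr2 (0.947), and Meis1 by Aff3 (0.914), Olfr1033 (0.888) and Rcn3 (0.868). Zfp536 was followed by Chsy3 (0.896), Abi3bp (0.895) and Mmp2 (0.895), and Ebf1 by Gucy1a1 (0.955, a pericyte marker), Pcdh18 (0.882) and Hpse2 (0.869). Among the 10 factors the closest pair was Tbx2 and Tbx4 (0.854).

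Noncoding genes beside the factors were raised with several of them. Fendrr, a long noncoding RNA that starts 1276 bp upstream of Foxf1 on the opposite strand, was at log2 2.52 (1.96 to 3.12) in PBS and 2.52 (2.10 to 2.95) in OVA in mesenchymal over other nuclei. It was highest in myofibroblasts or smooth muscle (174 and 237 CPM, against 55.0 and 53.2 in fibroblasts and 105 and 117 in pericytes). Tbx3os1, a transcript antisense to Tbx3, reached log2 3.66 (3.11 to 4.26) and 4.73 (4.15 to 5.37). Gm43050, 2641 bp from the Tbx5 start, reached 3.73 and 3.28, and 2610027K06Rik, 328 bp from the Tbx2 start, 3.05 (1.47 to 5.06) and 4.22 (2.58 to 6.56). Reads of such overlapping or antisense pairs can be told apart only where counting used strand, which was not given in the sources used here. Of the protein-coding neighbours with enough UMIs, Tbpl1 near Tcf21 (0.55 and 0.0862), Mthfsd near Foxf1 (0.86 and 0.35) and Rnf145 near Ebf1 (-0.18 and -0.42) did not reach 4-fold. Foxc2 and Foxl1, the forkhead genes beside Foxf1, had too few UMIs to be compared, 4 and 2 for Foxc2 and 5 and 10 for Foxl1 in mesenchymal nuclei.

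The PBS and OVA libraries were then compared within each mesenchymal gate. None of the factors differed 2-fold in any gate, that is 0 of the 25 pairs of factor and gate with at least 20 UMIs, of 30 pairs in all. Among all genes, 3.66% passed in fibroblasts, 7.35% in myofibroblasts or smooth muscle and 8.20% in pericytes. Split by direction, 2.15% were higher and 1.51% lower in OVA in fibroblasts, 6.81% and 0.542% in myofibroblasts or smooth muscle, and 7.12% and 1.08% in pericytes. The median log2 ratio of OVA over PBS for the 25 pairs was -0.00655. That of all genes was 0.16, 0.28 and 0.29 in the 3 gates, and -0.0187, 0.11 and 0.0953 when only UMIs of nuclear genes formed the denominator. In nuclei with at most 20% mitochondrial UMIs, 4 of 21 pairs passed, against 5.56% of all pairs of gene and gate, and all 4 were lower in OVA: Zfp536 in fibroblasts, Tbx5 in myofibroblasts or smooth muscle and in pericytes, and Meis1 in pericytes.

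Smaller differences, with intervals that left out equality, were found for 5 of the 25 pairs, 3 of 10 in fibroblasts, 0 of 8 in myofibroblasts or smooth muscle and 2 of 7 in pericytes, against 23.1%, 12.7% and 14.9% of all genes. In fibroblasts, Zfp536 was at 123 CPM in PBS and 79.9 CPM in OVA (log2 -0.62, interval -0.90 to -0.34), Tbx5 at 181 and 141 CPM (-0.36, -0.58 to -0.13), and Meox2 at 67.2 and 86.3 CPM (0.36, 0.0235 to 0.71). In pericytes, Meis1 was at 511 and 363 CPM (-0.49, -0.93 to -0.0449) and Ebf1 at 1410 and 1940 CPM (0.46, 0.22 to 0.70). Relative to the median of all fibroblast genes, the log2 difference of Meox2 was 0.20 (-0.14 to 0.55), that of Zfp536 -0.78 and that of Tbx5 -0.52. Relative to the median of all pericyte genes, Ebf1 was at 0.17 (-0.0667 to 0.40) and Meis1 at -0.78 (-1.23 to -0.34). With only UMIs of nuclear genes in the denominator, 8 of the 25 intervals left out equality (5 in fibroblasts, 0 in myofibroblasts or smooth muscle and 3 in pericytes, against 18.0%, 8.94% and 10.3% of all genes). Tbx3 (-0.46), Tbx4 (-0.24) and Meis1 (-0.19) in fibroblasts and Tbx5 (-0.72) in pericytes were added, each lower in OVA, and Meox2 in fibroblasts was lost. Fibroblasts had a median of 1078 UMIs with 28.5% mitochondrial UMIs in PBS and 1935 UMIs with 19.0% in OVA, and the part of these values was not tested. Treatment, litter and library cannot be told apart.

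The Zfp536 difference in fibroblasts was not seen within clusters. Cluster 4, which held nearly all its UMIs, was 17.4% of the gate in PBS and 12.8% in OVA, and within cluster 4 the log2 ratio was 0.20 (-0.0892 to 0.49), of the other sign. Tbx5 was lower in OVA within cluster 4 (-0.47, -0.84 to -0.10), while in clusters 1 and 3 it stood at 0.0470 (-0.27 to 0.37). The difference between these ratios was not tested. In cluster 9, Ebf1 (0.99, 0.32 to 1.69) and Meis1 (0.43, 0.0767 to 0.80) were higher in OVA. Among the further transcription factors, 4 of 56 pairs passed 2-fold, 1 of 27 in fibroblasts, 2 of 14 in myofibroblasts or smooth muscle and 1 of 15 in pericytes, beside the 3.66%, 7.35% and 8.20% of all genes. They were Srf in fibroblasts (log2 1.07) and Gli3 (1.30) and Mef2c (1.26) in myofibroblasts or smooth muscle, which were higher in OVA, and Meis2 in pericytes (-1.60), which was lower. With nuclear-gene UMIs as the denominator the interval of Gli3 (1.13, -0.0192 to 2.47) held equality.

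**Figure D4:**
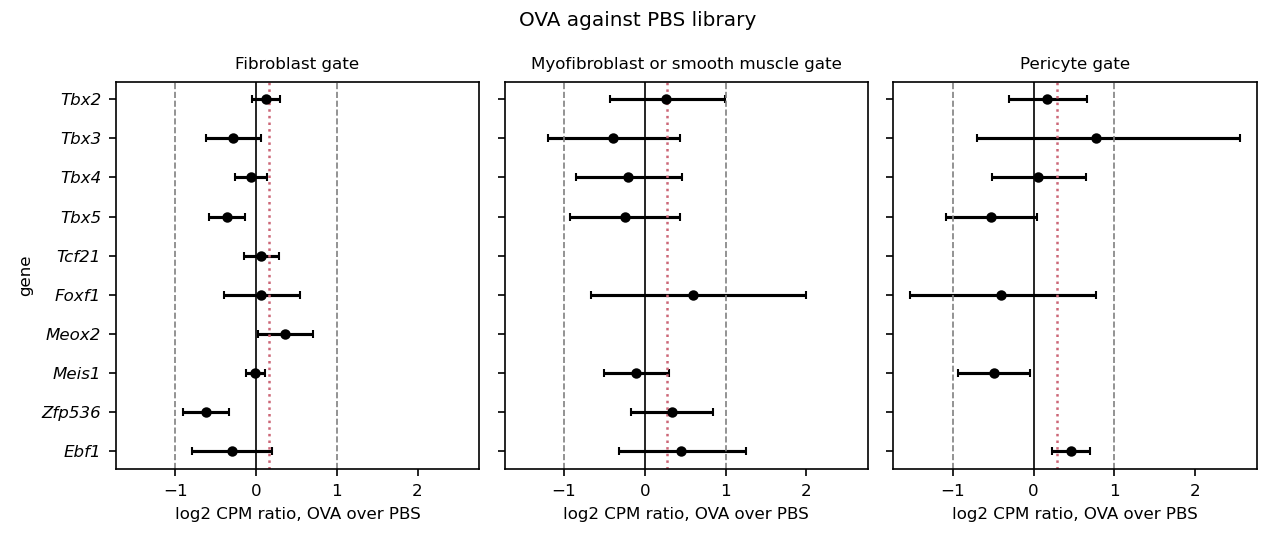
Log2 ratio of CPM in the OVA over the PBS library for each factor with at least 20 UMIs in the gate, with fibroblasts, myofibroblasts or smooth muscle, and pericytes in separate panels. Bars are 95% counting intervals, dashed lines mark 2-fold and the dotted red line is the median of all genes in that gate; all 25 points lie between the dashed lines, and the intervals of 5 leave out 0.

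Chromatin accessibility was read from peaks that the authors called in each library separately. The windows of 100 kb on either side of the 10 starts held 152 peaks in PBS and 138 in OVA, of which 148 and 137 had at least 20 counts. Of these, 58 (39.2%) in PBS and 58 (42.3%) in OVA were raised in mesenchymal nuclei, meaning at least 4-fold more accessible than in other gated nuclei with an interval that left out equality, against 10.1% and 13.2% of all peaks. By the same rule 10 of 148 and 10 of 137 were lower, against 20.0% and 26.6% of all peaks. As the factors were chosen as mesenchymal genes, these shares are descriptions. Distances are counted from the most upstream start that the authors' files list for the gene, which for Tbx5 (119834663) lies inside the annotated gene. Raised peaks of both libraries overlapped in 40 cases, 69.0% of either set. Of all peaks, raised or not, 102479 of 134977 in PBS and 102352 of 120379 in OVA overlapped a peak of the other library. The share over all raised peaks was not computed. Tbx2 and Tbx4 lie so close together that their windows share peaks, and the windows of Tbx3 and Tbx5 also overlap. Shared peaks are counted once in these totals. In the counts of single factors they are counted for each, so those counts are not separate results for such neighbours.

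The factors differed in how much of their surroundings was open in mesenchyme. Around Tbx5, 15 of 16 peaks (PBS) and 14 of 16 (OVA) were raised. Tbx3 had 12 of 21 and 11 of 16, Tbx2 13 of 32 and 15 of 34, Tcf21 7 of 14 and 5 of 10, Foxf1 5 of 19 and 6 of 13, and Tbx4 6 of 24 and 8 of 28. Meox2 had 1 of 1 and 2 of 2, and Zfp536 2 of 5 and 2 of 4. Meis1, with 3 of 18 and 2 of 20, and Ebf1, with 1 of 22 and 3 of 21, were near the share of all peaks. At Ebf1, 8 of 22 and 7 of 21 peaks were lower in mesenchyme. By distance, 5 of 9 and 7 of 9 peaks within 1 kb of a start were raised, 13 of 40 and 15 of 38 between 1 and 20 kb, and 40 of 99 and 36 of 90 between 20 and 100 kb. The shares of all peaks, 10.1% and 13.2%, were not split by distance, so these bins have no background.

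**Figure D5:**
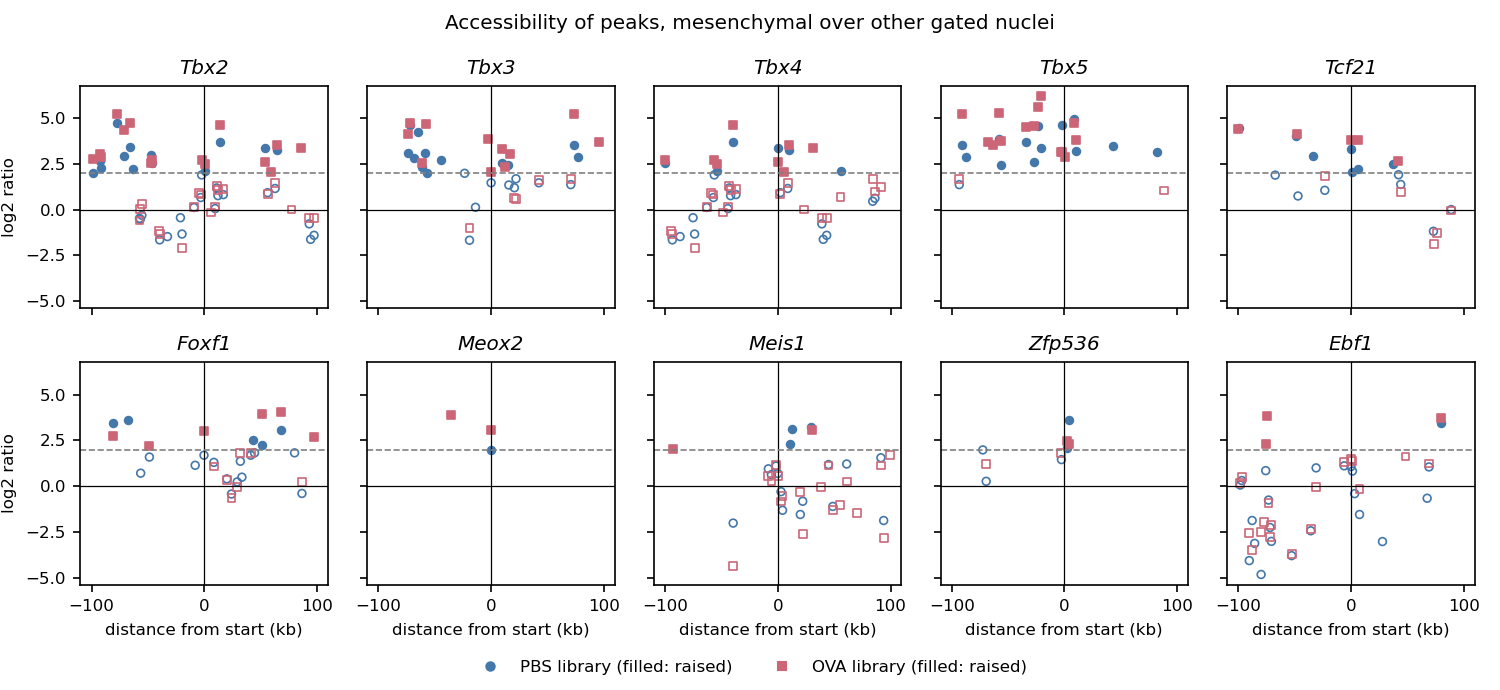
Each peak with at least 20 counts within 100 kb of a factor's start, by its distance from the start (x axis, kb) and its log2 accessibility ratio of mesenchymal over other gated nuclei (y axis), with PBS as blue circles and OVA as red squares, filled when raised. The dashed line marks 4-fold, and 2 peaks without counts in one of the groups have no ratio and are not drawn; 15 of 16 (PBS) and 14 of 16 (OVA) points of Tbx5 are filled, and those of Ebf1 spread to both sides of 0.

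For most factors the largest ratios lay away from the starts. The exceptions were Meox2 in PBS, whose only peak lay over its start, and Zfp536 in OVA. For Tbx5 in OVA, an intergenic peak 23.3 kb upstream (chr5:119810713-119811928) had 30.4 counts per 1000000 peak counts in mesenchymal and 0.628 in other nuclei, 48.4-fold more (log2 5.60, interval 4.22 to 6.63). Another, 21.0 kb upstream (chr5:119813243-119814119), had 104 counts in mesenchymal and only 2 in other nuclei, a log2 ratio of 6.21 with an interval of 3.72 to 11.6. In PBS the largest near Tbx5 lay in an intron of the gene (chr5:119843067-119843973, 71 against 4 counts, 31.4-fold), and the next (chr5:119832273-119832776, 71 against 5 counts, 25.1-fold) covered the annotated 5′ end of the gene. For Tbx2 it lay in an intron of the neighbouring gene Bcas3, 77.3 kb upstream (chr11:85754757-85755663 in PBS, 26.5-fold, and chr11:85754756-85755739 in OVA, 38.1-fold). Between Tbx2 and Tbx4, a peak over an exon of Gm11444 (chr11:85845970-85846861 in PBS, chr11:85845993-85846879 in OVA) was raised 12.9-fold and 25.1-fold. For Tbx3 in OVA it was an intergenic peak 73.2 kb downstream (chr5:119743390-119744422, 36.9-fold), on the side of Tbx5 and also within the Tbx5 window.

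At Tcf21 both of the largest peaks were intergenic, upstream of the gene and present in both libraries. The one 99.9 kb away (chr10:22919580-22920533 in PBS) was raised 21.8-fold in PBS and 21.1-fold in OVA, and the one 48.5 kb away (chr10:22868135-22869221 in PBS) 16.4-fold and 17.6-fold. The farther peak had 10.5 and 11.4 counts per 1000000 in fibroblasts, 0 and 2.32 in myofibroblasts or smooth muscle and 0 in pericytes of either library. At Foxf1 the largest in OVA lay 68.2 kb downstream, in an intron of the overlapping transcript Gm20388 (chr8:121152022-121153084, 16.3-fold). At Meis1 it lay in an intron of the gene (chr11:18988600-18989688 in PBS), raised 9.26-fold and 8.26-fold. At Ebf1 a peak in an intron 79.6 kb inside the gene (chr11:44696523-44697395 in PBS) was raised 11.1-fold and 13.1-fold.

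At the starts themselves most ratios were smaller. Tcf21 (chr10:22819769-22820584 in PBS) had 17.3 counts per 1000000 in mesenchymal and 1.76 in other nuclei in PBS and 17.5 and 1.26 in OVA, 9.83-fold (log2 3.30, 2.43 to 4.14) and 13.9-fold (3.80, 2.81 to 4.59) more. Peaks over the first start of Tbx4 (10.4-fold and 5.99-fold) and the starts of Meox2 (4.01-fold and 8.27-fold), Tbx2 (4.39-fold and 5.67-fold) and Zfp536 (4.33-fold and 5.46-fold) also passed 4-fold in both libraries. That of Zfp536 lay 2.35 kb inside the gene from its first listed start, within the stretch over which its starts are listed. Within that stretch of Tbx4, other peaks stood at 1.91-fold and 1.83-fold (chr11:85888129-85889048 in PBS) and at 2.23-fold and 2.71-fold (chr11:85894803-85895697 in PBS) and did not pass, and a peak called in OVA alone (chr11:85891026-85891988) stood at 4.10-fold. The start peaks of Tbx3 (2.77-fold and 4.24-fold) and Foxf1 (3.22-fold and 7.93-fold) passed in OVA only. At the start listed for Tbx5 a peak was called in OVA only (7.34-fold). The PBS peak over the annotated 5′ end of Tbx5 was raised 25.1-fold and overlapped a raised peak of the OVA library. The start peaks of Ebf1 (2.10-fold and 2.77-fold) and Meis1 (1.62-fold, log2 0.69, 0.34 to 1.02, and 1.47-fold, 0.55, 0.25 to 0.84) did not pass. Meis1 RNA was 10.1-fold and 9.54-fold higher in the same nuclei.

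Promoter sequence from RefSeq (GRCm38.p6) was at hand for 6 of the 10 factors. The stretches shown lie before a start, outside annotated exons and under a peak in both libraries. They were searched on both strands for forkhead (TGTTTAC), T-box (TCACACC), MEIS (TGACAG), EBF, TATA box (TATAAA) and CCAAT motifs, and a match is in capitals as it reads on the gene's strand.
Tcf21, chr10:22820175-22820393, minus strand: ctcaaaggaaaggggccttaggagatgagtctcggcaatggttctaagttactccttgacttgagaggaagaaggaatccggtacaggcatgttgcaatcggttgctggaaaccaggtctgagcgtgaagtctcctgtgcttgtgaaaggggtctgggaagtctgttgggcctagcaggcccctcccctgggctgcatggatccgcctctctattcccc
Meox2, chr12:37108290-37108539, plus strand: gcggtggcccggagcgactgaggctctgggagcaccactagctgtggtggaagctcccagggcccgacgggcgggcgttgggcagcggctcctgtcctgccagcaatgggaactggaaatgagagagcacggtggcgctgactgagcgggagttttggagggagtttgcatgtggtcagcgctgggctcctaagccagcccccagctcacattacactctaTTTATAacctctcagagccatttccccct
Tbx4, downstream start, chr11:85896515-85896764, plus strand: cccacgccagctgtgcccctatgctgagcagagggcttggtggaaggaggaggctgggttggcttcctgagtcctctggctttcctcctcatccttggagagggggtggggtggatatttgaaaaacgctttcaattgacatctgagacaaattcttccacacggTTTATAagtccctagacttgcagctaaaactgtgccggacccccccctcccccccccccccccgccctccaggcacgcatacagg
Meis1, chr11:19018986-19019219, minus strand: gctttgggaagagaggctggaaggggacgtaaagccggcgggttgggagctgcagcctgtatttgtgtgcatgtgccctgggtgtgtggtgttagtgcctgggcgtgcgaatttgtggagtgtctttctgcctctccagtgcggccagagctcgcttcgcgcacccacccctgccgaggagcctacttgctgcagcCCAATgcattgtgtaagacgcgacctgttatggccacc
TATA box letters occurred on the other strand 29 bases before the start of Meox2 and 85 bases before the downstream start of Tbx4. Meis1 had a CCAAT match, and Tcf21 had none of the 6. Of 32851 mouse promoters of 250 bases, 12.4% held the TATA box letters and 33.8% CCAAT, against 3.17% for the forkhead, 3.33% for the T-box, 15.9% for the MEIS and 0.779% for the EBF motif. The peak over the stretch of Tbx4 (chr11:85896157-85896929 in PBS) was raised 9.56-fold in PBS and 11.5-fold in OVA.

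Within the mesenchyme, accessibility of the whole window was compared between gates. The Foxf1 window was less accessible in fibroblasts than in myofibroblasts or smooth muscle (log2 -0.66, interval -0.88 to -0.42, and -0.60, -0.84 to -0.34) and pericytes (-0.35, -0.62 to -0.0666, and -0.48, -0.69 to -0.25). The Ebf1 window differed in the same direction, by -0.45 and -0.47 against myofibroblasts and -0.66 and -0.69 against pericytes, with intervals that left out equality in both libraries. The peak over the Ebf1 start had 14.6 and 15.5 counts per 1000000 in fibroblasts, 28.8 and 33.6 in myofibroblasts or smooth muscle and 41.3 and 36.3 in pericytes, a smaller contrast than the 37.2-fold and 62.9-fold of Ebf1 RNA between fibroblasts and pericytes. For the other 8 windows no pair of gates had an interval without equality in both libraries.

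Among the clusters of the fibroblast gate, clusters 1 and 3 were less accessible than cluster 4 at Foxf1 (log2 -0.65, interval -0.86 to -0.43, in PBS and -0.52, -0.73 to -0.30, in OVA) and at Tbx3 (-0.37, -0.60 to -0.13, and -0.54, -0.77 to -0.31), the direction of their RNA. The Foxf1 window was also less accessible in clusters 1 and 3 than in cluster 9 (-0.405, -0.675 to -0.127, and -0.457, -0.736 to -0.168). Foxf1 RNA was no higher in cluster 9, at 21.1 and 21.3 against 24.7 and 29.2 CPM. At the peak over the Tbx3 start alone, clusters 1 and 3 could not be separated from cluster 4 (0.0473, -0.369 to 0.478, and 0.219, -0.179 to 0.639). Clusters 1 and 3 were more accessible than cluster 4 at Tbx2 (0.41 and 0.29) and Tbx4 (0.41 and 0.27), although Tbx4 RNA was higher in cluster 4. These windows share peaks, so the values cannot be assigned to either gene. At the peaks over the Tbx4 starts alone the ratio was 0.60 (0.038 to 1.2) in PBS and -0.0185 (-0.50 to 0.49) in OVA. At Tbx5 clusters 1 and 3 exceeded cluster 9 (0.48 and 0.69), as did cluster 4 (0.45 and 0.91). For Zfp536, whose RNA in this gate came almost wholly from cluster 4, a difference at the peaks over its start was not detectable at this depth between clusters 1 and 3 and cluster 4, with log2 -0.0877 (-0.85 to 0.72) from 51 and 21 fragments in PBS and -0.18 (-0.91 to 0.62) from 86 and 19 fragments in OVA. Between the OVA and PBS libraries, none of the 10 windows had an interval in fibroblasts that left out equality, and the ratios ran from -0.27 (Zfp536, -0.59 to 0.0654) to 0.0861 (Tbx5, -0.0655 to 0.24). The share over windows of other genes was not computed, so this count has no background.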

How the data were processed

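Nuclei of 1 PBS and 1 OVA library were profiled by 10x Multiome, which reads RNA and open chromatin of the same nucleus. Per the submitters' processing notes, the authors used Cell Ranger ARC 2.0.1 with mm10. The deposited matrices hold raw counts: UMIs per gene, and transposition cut sites per peak, with peaks called per library. No value was normalized before deposit.

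Nuclei with at least 200 genes and at most 60% mitochondrial UMIs (the study's filters) were kept, 4572 and 5246, and 293 and 250 calls of a simulated-doublet score were removed. UMIs were summed by gate and library. CPM is over all gene UMIs, with exact Poisson intervals, and ratios have exact conditional binomial intervals (scipy 1.17.1). Even values made up 91.3% and 91.2% of peak entries, so intervals count the cut sites of a fragment once. Clusters used scanpy 1.11.5 and leidenalg 0.10.2. The scripts were tested on simulated data. With 1 library per group no test across replicates is possible.

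The 10 factors and all lists were chosen with earlier results of these data known. Beyond them, the text names the 8 leading further factors by the smaller ratio, for each factor the 3 best-correlated genes (1 of them is not reported here), neighbours within 100 kb, the 2 peaks of largest ratio among those raised and the peak nearest the start. Gene positions came from GENCODE vM21 (GRCm38). Alternatives changed the gate, clusters, doublet removal, mitochondrial limit, count filter, denominator, minimum counts, fold, window and centring.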

Additional observations from a re-analysis of the deposited data

How the results depend on the processing

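No paired analysis was possible because there was 1 library for PBS and 1 for OVA, and no replicate could be left out. The count of factors raised in mesenchymal nuclei ran from 6 to 9 over 9 alternatives. A joint filter on UMIs and cut sites added Foxf1, and an 8-fold threshold removed Tbx3. Of the further transcription factors, 7 instead of 15 were raised with at most 20% mitochondrial UMIs, 7 with a minimum of 100 UMIs and 6 at 8-fold, settings that left fewer nuclei or genes or asked for more. Between the libraries, 1 pair passed 2-fold with a stricter gate (Zfp536 lower in OVA fibroblasts), 1 with clusters in place of gates (Zfp536 higher in OVA pericytes) and 4 of 21 with at most 20% mitochondrial UMIs, against 0, and the cause was not tested. That limit left 222 and 769 mesenchymal and 113 and 400 other nuclei, and 7 of 32 PBS peaks (21.9%, background 6.76%) were raised. A window of 20 kb held 18 raised peaks in PBS and 22 in OVA. Of 140 single ratios of mesenchymal over other nuclei, all kept their sign and 95 stayed within the interval, and of 167 ratios between libraries 139 kept their sign and 149 stayed within it. Depth limits the myofibroblast and pericyte gates most, where several factors had under 10 UMIs.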
